A study of Sus scrofa domesticus with 4 samples.

Results

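The prostaglandin genes examined here are the enzymes that make and break down prostaglandins and the receptors that sense them, followed in pig uterine muscle (myometrium) cultured with or without orexin B. Of 10 genes named for the purpose (PTGS1, PTGS2, PTGES, PTGIS, AKR1B1, CBR1, HPGD, PTGFR, PTGER2 and PTGER4), 5 had an array probe whose RefSeq mRNA accession matched the gene. These 5 genes, PTGS2, PTGES, AKR1B1, CBR1 and PTGFR, had 8 of the 43603 probes on the array. PTGS1, PTGIS, HPGD, PTGER2 and PTGER4 matched no probe through these accessions and were not analysed here. Of the 8 probes, 7 were bright enough to test and the PTGFR probe was not.

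Prostaglandins are lipid signals made from arachidonic acid. The cyclooxygenases PTGS1 and PTGS2 make prostaglandin H, terminal synthases turn it into prostaglandins E, F or I, and HPGD inactivates them. In the uterus prostaglandin F acting on its receptor PTGFR makes the muscle contract and, in the pig, brings on the regression of the corpus luteum, while prostaglandin E acting on PTGER2 and PTGER4 raises cyclic AMP and relaxes muscle.

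Slices of myometrium came from gilts (Large White x Polish Landrace, 7 to 8 months old) on days 15 to 16 of gestation. After 2 h of preincubation, slices were kept for 24 h with 10 nM orexin B, a neuropeptide that activates the orexin receptors, or for the same time with no treatment. Both RNAs of a pair were labelled with different dyes and shared an array, with 4 arrays for 4 experiments on 4 gilts, each culture made in duplicate. The labels do not tie an array to a gilt, so the p-values speak only to how far these 4 arrays varied, which may be partly technical. By the sample fields the dye of the orexin B channel was Cy5 for arrays 1 and 3, and Cy3 for arrays 2 and 4. All ratios are given as log2 of orexin B over untreated, and each standard error is limma's moderated one over 4 arrays.

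The arrays resembled each other little: across tested probes, which are not independent, pairs of arrays correlated at r between -0.18 and 0.36. All 7 matched smooth muscle markers, of 11 listed, were bright enough to test, and their summed normalized intensity ran from 262694 to 723136 in orexin B channels and from 478749 to 915152 in untreated channels. Their median ratios on arrays 1 to 4 were -0.01, -1.15, 0.19 and -1.24. Of 10 epithelial markers listed, 4 matched a probe and all 4 were above background on at least 1 array. Of 10 macrophage markers, 7 matched a probe, and all 7 had a mean ratio above 0, with array medians of 0.61, 0.19, 0.86 and 0.78 and summed intensities from 6305 to 15357 in orexin B channels and from 3679 to 8901 in untreated channels. The part of a differing cell make-up in the ratios below was not tested.

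None of the prostaglandin genes passed the test. In limma's moderated test, 0 of 7 probes had an adjusted p under 0.05, as did 0% of the 19876 probes tested (0 probes). At an unadjusted p under 0.05 there were also 0 of 7, against 7.72% of all tested probes (856 or 4.31% higher, 678 or 3.41% lower; if arrays were only centred on their median, 172 higher and 5 lower), and an unmoderated one-sample test gave 0 of 7 at that level too. Means were above 0 for 6 of the 7 probes, against 54.1% of all tested probes. The median of the 4 tested genes, each taken by its brightest probe, was 0.18, against 0.017 over all named genes and 0.018 over all tested probes.

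PTGS2, the inducible cyclooxygenase and rate-limiting enzyme of prostaglandin synthesis in stimulated cells, had the widest spread of ratios among the tested members. Its brighter probe (A_72_P302784) had log2 ratios of 1.51, 0.95, -1.23 and 1.32 on arrays 1 to 4. PTGS2 was thus 2.85-, 1.94- and 2.50-fold higher with orexin B on arrays 1, 2 and 4 and 2.35-fold lower on array 3. The dimmer probe (A_72_P443218) repeated the pattern, with 1.13, 0.89, -1.09 and 1.36. The probes had the same sign on 4 of 4 arrays and differed by 0.04 to 0.38 on the same array. Array 3 lay over 1.9 below each of the others in both probes, so its low value was found in 2 separate spots, while arrays 1, 2 and 4 lay much closer together.

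**Figure D1:**
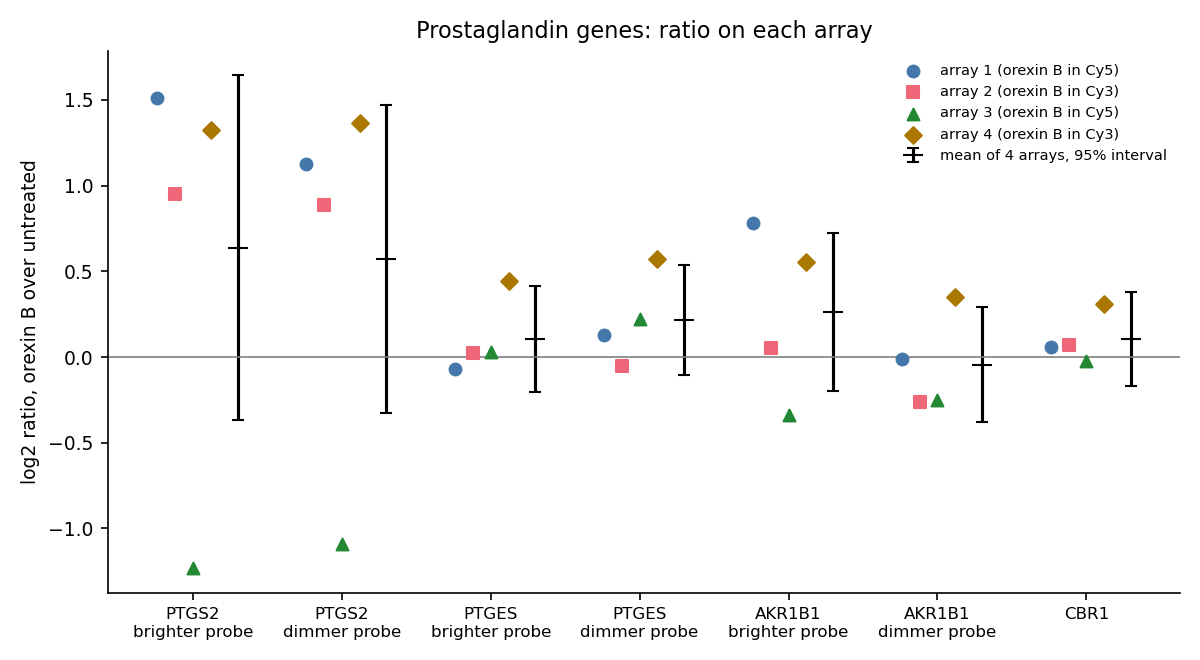
Log2 ratio of orexin B over untreated (vertical axis) for the 7 tested probes of PTGS2, PTGES, AKR1B1 and CBR1 (horizontal axis); coloured points are the 4 arrays, and the black bar is their mean with its 95% interval. Both PTGS2 probes lay between 0.89 and 1.51 on arrays 1, 2 and 4 and below -1 on array 3, and all 7 intervals included 0.

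The mean of the brighter PTGS2 probe was 0.64 ± 0.43 (SE, n = 4 arrays, limma adjusted p = 0.753), with a 95% interval from -0.37 to 1.64. In folds the interval ran from 0.776 to 3.12, so neither a small decrease nor a 3.12-fold increase lay outside it. The dimmer probe had 0.57 ± 0.38 (limma adjusted p = 0.7525). An exact sign-flip permutation test of the 4 ratios gave a two-sided p of 0.375 for each probe, where the smallest p that 4 arrays allow is 0.125. PTGS2 was among the most variable probes measured: its SD over arrays, 1.27, exceeded that of 99.5% of tested probes, whose median SD was 0.27, and was reached by 0.538% of them. Within each array the brighter probe stood at percentile 99.96 of all tested ratios on array 1, 95.2 on array 2, 0.509 on array 3 and 99.4 on array 4.

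**Figure D2:**
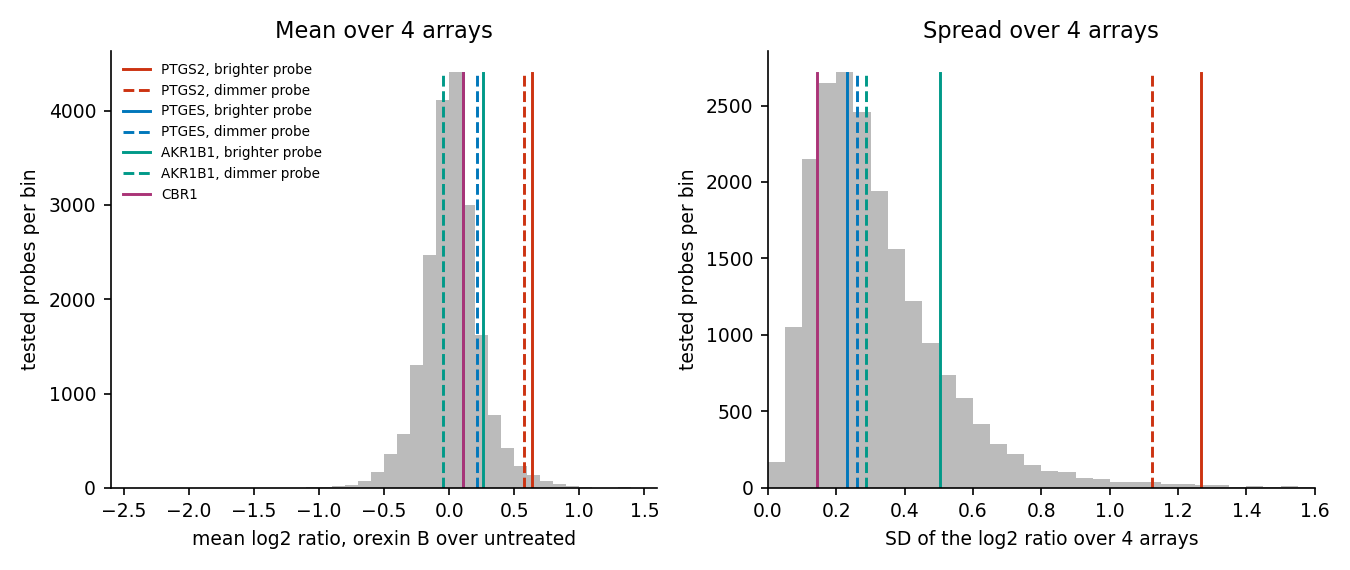
Histograms of the mean log2 ratio (left) and of its SD over the 4 arrays (right) for all 19876 tested probes in grey, with the 7 probes of the prostaglandin genes as coloured lines (solid, brighter probe; dashed, dimmer probe). PTGS2 stood apart in spread, with SDs of 1.27 and 1.12, while the means of all 7 probes lay between -0.04 and 0.64.

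The mean depended on single arrays. Without replicate 3 the brighter probe had 1.26 (unadjusted p = 2.25e-04, limma adjusted p = 0.377) and the dimmer one 1.13 (adjusted p = 0.377), so neither passed the threshold in that fit either. Array 3 alone had the opposite sign, so a smaller p without it follows from the same values and is no further evidence. In that fit 1922 of 19876 probes had an unadjusted p under 0.05. Without replicates 1, 2 and 4 the brighter probe had 0.35, 0.53 and 0.41 (limma unadjusted p = 0.48, 0.36 and 0.43). Within dye orientation it averaged 0.14 with orexin B in Cy5 (arrays 1 and 3) and 1.14 with orexin B in Cy3 (arrays 2 and 4). The low array 3 and the high array 1 belong to the same orientation.

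The channel levels lie behind these ratios. In orexin B slices the brighter PTGS2 probe had log2 intensities of 14.47, 15.59, 13.55 and 14.23 on arrays 1 to 4, against 12.96, 14.63, 14.78 and 12.91 in untreated slices. The untreated slices thus formed a low pair (arrays 1 and 4) and a high pair (arrays 2 and 3), and the orexin B levels overlapped the untreated ones. PTGS2 varied by 2.04 log2 units between orexin B slices and by 1.87 between untreated slices. These ranges lie between arrays, while each ratio is taken within 1 array, so they do not measure the error of the mean ratio. On array 3 a high untreated level met the lowest of the orexin B levels. In bulk tissue, a different number of PTGS2-expressing cells and a different amount of PTGS2 RNA per cell cannot be told apart.

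**Figure D3:**
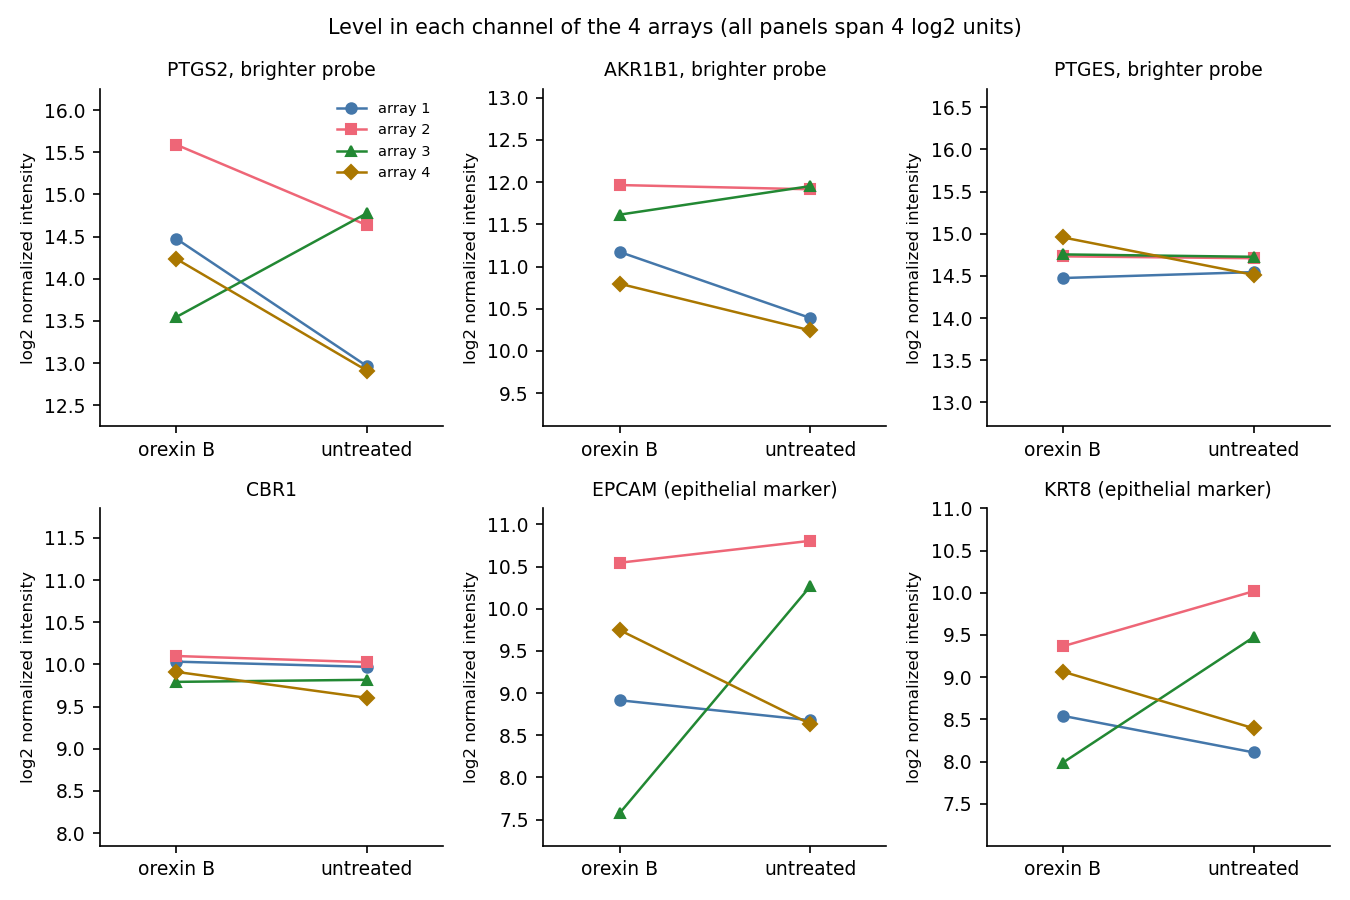
Normalized log2 intensity (vertical axis) in the orexin B channel (left of each panel) and the untreated channel (right), with 1 line per array; each panel spans 4 log2 units and levels are not comparable between panels. PTGS2, AKR1B1, EPCAM and KRT8 were all higher in untreated slices on arrays 2 and 3 than on arrays 1 and 4, while the brighter PTGES probe and CBR1 spanned under 0.5 log2 units within each treatment.

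Epithelial markers had ratios of the same sign as PTGS2 on arrays 1, 3 and 4 and of the opposite sign on array 2. EPCAM, an adhesion molecule of epithelial cells, had log2 intensities of 8.92, 10.55, 7.58 and 9.75 in orexin B slices on arrays 1 to 4, against 8.68, 10.81, 10.27 and 8.63 in untreated slices. KRT8, an epithelial keratin, had 8.54, 9.37, 7.99 and 9.07 in orexin B slices, against 8.11, 10.02, 9.47 and 8.39 in untreated slices. Both were high in the same untreated slices as PTGS2, those of arrays 2 and 3, and lowest in the orexin B slice of array 3. The high untreated pair was not particular to epithelial markers. The summed intensity of the 4 tested endothelial markers was 8180, 11584, 9787 and 8377 in the untreated slices of arrays 1 to 4.

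The EPCAM ratio was -2.69 on array 3, where PTGS2 was at -1.23. All 16 EPCAM probes, of which only 8 passed the filter for testing, were between -2.76 and -1.38 there. Arrays 1 and 4 had EPCAM ratios of 0.24 and 1.11. On array 2 the directions parted, with PTGS2 at 0.95 and EPCAM at -0.26. The summed intensity of the tested epithelial markers (EPCAM and KRT8) ran from 444.6 to 2155 in orexin B slices and from 686 to 2827 in untreated slices. Of 5 neutrophil markers listed, 3 matched a probe and 2 were tested (S100A8 and S100A12). Their median ratios on arrays 1 to 4 were 0.04, 1.502, -1.06 and 0.78. These had the sign of PTGS2 on all 4 arrays, though by only 0.04 on array 1. The summed intensity of both genes was 697, 5049, 2532 and 8045 in orexin B slices, against 665, 1325, 8668 and 4342 in untreated slices, whose highest value was on array 3. Other marker lists did not share the sign of PTGS2 on all arrays. Smooth muscle and fibroblast medians had the opposite sign on all 4 arrays, though smooth muscle was only at -0.01 on array 1. The medians were -0.12, -0.81, 0.11 and -0.95 for fibroblast markers and 0.40, 0.09, -0.11 and -0.08 for endothelial markers. Trophoblast markers had 0.33, 0.15, 0.12 and 0.06. The part of any of these cell types in the PTGS2 values was not tested.

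PTGES, the inducible synthase that turns prostaglandin H into prostaglandin E, was nearly level. In orexin B slices its brighter probe (A_72_P177991) had log2 intensities of 14.48, 14.73, 14.76 and 14.96 on arrays 1 to 4, against 14.55, 14.71, 14.73 and 14.51 in untreated slices. The ratios were -0.07, 0.02, 0.03 and 0.44, so only array 4 moved by more than 0.1. The mean was 0.11 ± 0.13 (SE, n = 4 arrays, limma adjusted p = 0.867), and the 95% interval in folds ran from 0.870 to 1.33.

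The dimmer PTGES probe (A_72_P495640) had ratios of 0.13, -0.05, 0.22 and 0.57, with a mean of 0.22 ± 0.14 (adjusted p = 0.749) and a fold interval from 0.930 to 1.45. Its levels spanned 1.06 log2 units between orexin B slices and 0.87 between untreated slices, wider than the 0.48 and 0.21 of the brighter probe. The ratio on array 4 was the highest for both probes. Without replicate 4 their means were -0.0066 and 0.099. As normalized here, PTGES therefore had a much narrower interval than PTGS2, its upper fold bound being 1.33 for the brighter and 1.45 for the dimmer probe. That depended on the normalization. With arrays only centred on their median the standard errors were 0.45 and 0.43 for the PTGES probes, against 0.55 and 0.48 for PTGS2.

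AKR1B1, an aldo-keto reductase with prostaglandin F synthase activity, had probes that did not give the same answer. The brighter probe (A_72_P232307) had ratios of 0.78, 0.05, -0.34 and 0.55 and a mean of 0.26 ± 0.20 (limma adjusted p = 0.772). The dimmer probe (A_72_P553751) had -0.01, -0.26, -0.25 and 0.35 and a mean of -0.04 ± 0.14 (adjusted p = 0.956). They shared a sign on 2 of 4 arrays and were 0.79 apart on array 1, where the dimmer probe's spot in the orexin B channel had a median signal of 275.5 over a local background of 29, against 385.5 over 39.5 in the untreated channel.

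The untreated AKR1B1 levels ordered the arrays much as those of PTGS2 did. In orexin B slices the brighter probe had log2 intensities of 11.17, 11.97, 11.61 and 10.80 on arrays 1 to 4, against 10.39, 11.92, 11.95 and 10.24 in untreated slices. As with PTGS2, EPCAM, KRT8 and the summed endothelial markers, untreated slices were high on arrays 2 and 3 and low on arrays 1 and 4. The range was 1.17 log2 units between orexin B slices and 1.71 between untreated slices, which again does not measure the error of the within-array ratios. Without replicate 3 the brighter probe had 0.46 and without replicate 1 it had 0.088.

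CBR1, a carbonyl reductase that in the pig uterus is credited with turning prostaglandin E into prostaglandin F, was the steadiest member. In orexin B slices its probe (A_72_P146631) had log2 intensities of 10.03, 10.10, 9.79 and 9.91 on arrays 1 to 4, against 9.97, 10.03, 9.82 and 9.60 in untreated slices. The ratios were 0.06, 0.07, -0.02 and 0.31, with an SD of 0.14 that was above that of only 15.1% of tested probes. The mean was 0.10 ± 0.12 (limma adjusted p = 0.855), with a fold interval from 0.889 to 1.30 as normalized here. With arrays only centred on their median the standard error was wider, at 0.27. Without replicate 4 the mean was 0.037.

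PTGFR, the receptor through which prostaglandin F contracts the myometrium, was not well above background on any of the 4 arrays in either channel. Its probe (A_72_P146291) had median spot signals of 71.5, 189, 110 and 241 in the orexin B channels of arrays 1 to 4, against 193, 94, 222 and 91 in the untreated channels. The higher signal was in the Cy3 channel on every array, whichever RNA that channel held. No fold is given, and no statement on the receptor's level in either group follows from such signals. The receptors for prostaglandin E, PTGER2 and PTGER4, were not analysed here, so the receptor arm rests on a related gene alone.

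That gene is PTGER3, a prostaglandin E receptor that lowers cyclic AMP, and it belongs to a wider list of other prostanoid genes. Of 23 listed genes, 6 matched a probe and 3 were bright enough to test, all with a mean below 0 (median -0.26) and 0 past an unadjusted p under 0.05. By its brighter probe PTGER3 had ratios of -0.08, -0.30, 0.25 and -0.07 and a mean of -0.05 ± 0.13 (limma adjusted p = 0.945). Without replicate 2 that mean was 0.033. The dimmer PTGER3 probe had -0.12, -0.80, 0.26 and -0.13 and a mean of -0.20 ± 0.18 (limma adjusted p = 0.816). PTGDS, a prostaglandin D synthase, had 0.07, -0.99, 0.26 and -0.36 and a mean of -0.26 ± 0.21 (adjusted p = 0.793).

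PTGR1, a reductase that acts on prostaglandins after HPGD in their breakdown, had 0.14, -1.08, -0.0042 and -0.28 and a mean of -0.31 ± 0.21 (limma adjusted p = 0.754). Without replicate 2 the means of PTGR1 and PTGDS were -0.049 and -0.012, so array 2 gave most of both means. The dimmer tested PTGR1 probe was below 0 on 4 of 4 arrays, with -0.30, -0.99, -0.04 and -0.25 and a mean of -0.39 ± 0.17 (limma adjusted p = 0.645). AKR1C1, the prostaglandin transporter SLCO2A1 and the thromboxane synthase TBXAS1 matched probes that were too dim to test.

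Upstream and beside the cyclooxygenases, 29 genes of arachidonate release and of the lipoxygenase branch were listed. Of these, 9 matched a probe and 6 were tested, 5 with a mean above 0 and 1 below (median 0.082). ALOX5AP, which presents arachidonate to the leukotriene-forming lipoxygenase, was below 0 on 4 of 4 arrays by its brightest probe, as were 7.02% of named genes, with ratios of -0.16, -0.60, -0.06 and -1.37. Its mean was -0.55 ± 0.22 (unadjusted p = 0.0420, limma adjusted p = 0.631) and -0.27 without replicate 4. It was the 1 of 6 genes lower at that level, against 4.24% of named genes. Its dimmer tested probe was above 0 on arrays 1 and 3 (0.28 and 0.32) and had a mean of -0.14.

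ANXA1, annexin A1, known as an inhibitor of phospholipase activity, had ratios of 0.08, 1.00, -0.03 and 0.42 and a mean of 0.37 ± 0.19 (limma adjusted p = 0.682), which was 0.16 without replicate 2. Its 8 tested probes had means between 0.16 and 0.48. ALOX15, a lipoxygenase, had 0.13 ± 0.15, PLA2G7, which hydrolyses platelet-activating factor, 0.13 ± 0.20, and MGLL, which releases arachidonate from monoacylglycerol, 0.04 ± 0.16, all with adjusted p of at least 0.863.

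**Figure D4:**
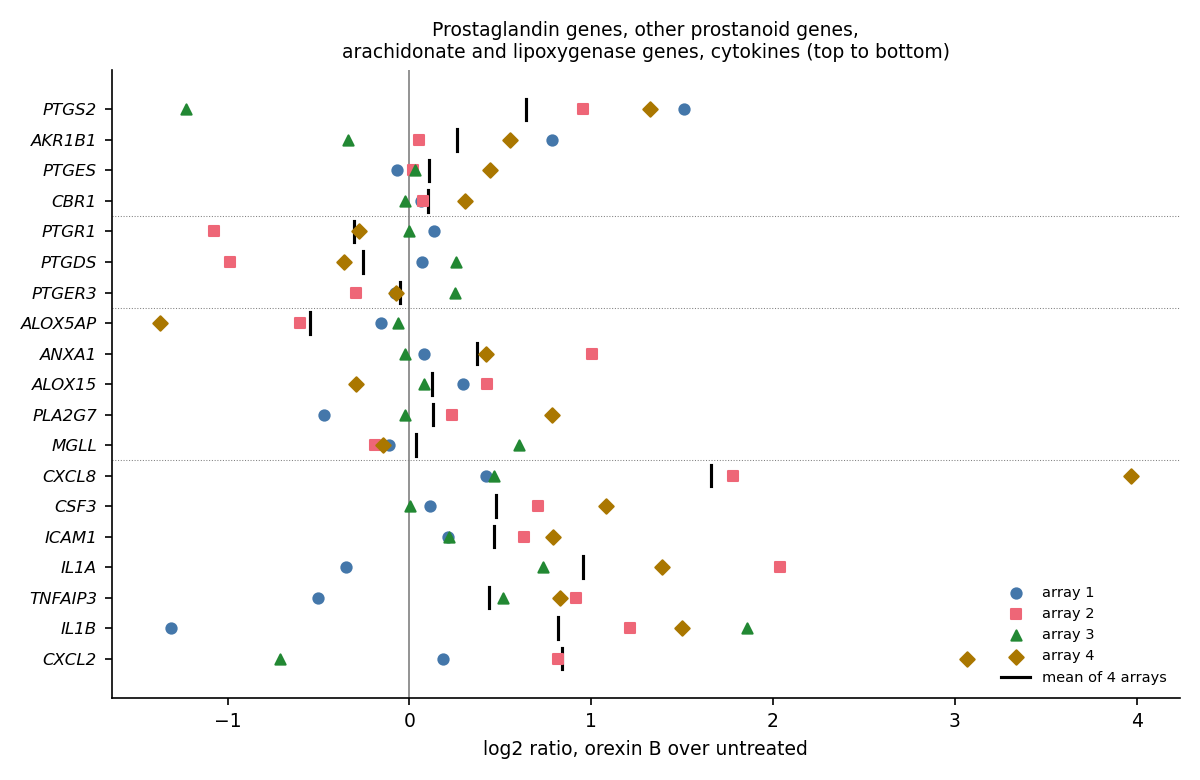
Log2 ratio of orexin B over untreated (horizontal axis) on each array (coloured points) and the mean of 4 arrays (black bar) for the tested prostaglandin genes and the named genes of 3 pathway lists, separated by dotted lines. PTGS2, shown by its brighter probe, was lowest on array 3, where IL1B was highest, and above 0 on array 1, where IL1B was lowest.

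Cytokines and NF-kB targets were listed because interleukin 1 and tumour necrosis factor are textbook inducers of PTGS2. Of 16 genes, 14 matched a probe and 13 were tested, 12 of them with a mean above 0 (median 0.44), against 53.7% of all 1979 named genes, each by its brightest probe. At limma's unadjusted p under 0.05 there were 4 of 13 higher (CXCL8, CSF3, ICAM1 and IL1A), against 6.27% of named genes, and 0 passed the adjusted threshold. None of these 4 reached that level in a one-sample test without limma's moderation, which gave p between 0.0504 and 0.158. By array, from 1 to 4, the median over the list was 0.03, 0.71, 0.14 and 0.83. Its highest arrays were 2 and 4, both with orexin B in Cy3; PTGS2 was highest on array 1 by its brighter probe and on array 4 by its dimmer one. The macrophage markers given above were above 0 in median on all 4 arrays, and their part in the cytokine values was not tested.

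IL1B, a secreted interleukin 1, had ratios of -1.31, 1.22, 1.86 and 1.502 (mean 0.82 ± 0.48, limma adjusted p = 0.731). IL1A had -0.35, 2.04, 0.73 and 1.39 (mean 0.95 ± 0.35, adjusted p = 0.607). On array 3 both were above 0 while PTGS2 was at -1.23, and on array 1 both were below 0 while PTGS2 was at 1.51. TNFAIP3, an NF-kB feedback inhibitor, had 0.44 ± 0.24 and likewise was below 0 on array 1 alone. Array 1 was also alone on its slide. It had the smallest share of probes above background in the untreated channel, 37.6%, and the most marked spots, 138. TNF, the other inducer named above, had 0.18, -0.06, 0.27 and -0.05 by its tested probe (mean 0.08 ± 0.12, limma adjusted p = 0.887).

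CXCL2, a neutrophil chemokine, had 0.18, 0.82, -0.71 and 3.07 (mean 0.84 ± 0.53, limma adjusted p = 0.750), which like PTGS2 was below 0 on array 3 and above 0 elsewhere. NFKB1, an NF-kB subunit, and the brighter probe of the chemokine CCL2 had that pattern too, with -0.01 and -0.22 on array 3. Both were singled out after their values were seen. The dimmer CCL2 probe did not have it, with 0.47, 0.20, 0.07 and 0.43 on arrays 1 to 4. NFKBIA of the same list went the other way on arrays 1 and 3. Its probes had -0.43 and -0.23 on array 1 and 0.14 and 0.47 on array 3. Both IL6 probes were below 0 on array 1 as well as on array 3. NFKBIA and IL6 were likewise named after their values were seen. The mean of CXCL2 was 0.096 without replicate 4. CXCL8, another neutrophil chemokine, had 1.66 ± 0.55, the granulocyte factor CSF3 0.48 ± 0.20 and the adhesion molecule ICAM1 0.46 ± 0.14, each above 0 on 4 of 4 arrays by the brightest probe, as were 8.44% of named genes. For CSF3 this rested on a value of 0.0037 on array 3, and its other tested probe was at -0.05 on array 1. None of these passed the adjusted threshold (smallest adjusted p = 0.596).

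Genes whose ratios lay closest to those of a member over the 4 arrays were sought among 1936 other named genes, by the root mean square difference of the 4 log2 ratios. PTGS2 was nearest to PDK4, a kinase that curbs pyruvate oxidation (0.37), the interferon-induced chemokine CXCL10 (0.41), the relaxin gene RLN2 (0.48), the immune checkpoint ligand CD274 (0.57) and the antiviral protein BST2 (0.60), where the median gene lay 1.30 away. PDK4 had ratios of 1.15, 0.33, -1.36 and 1.21, and CXCL10 had 0.74, 1.06, -1.11 and 1.09. All 5 were above 0 on arrays 1, 2 and 4 and below 0 on array 3, which their selection by nearness to PTGS2 made likely in advance. Of named genes, 27% had 3 arrays above 0 and 1 below. That share counts any array as the low one, so it is no background for array 3.

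For AKR1B1, the only other member spanning more than 1 log2 unit over the arrays, the nearest were the chemokine CCL5 (0.10), the stress transcription factor ATF4 (0.14), the epithelial adaptor SFN (0.16), S100A14 (0.18) and the hypoxia factor EPAS1 (0.20), where the median gene lay 0.58 away. With 4 arrays such nearness is a description of these samples.

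**Figure D5:**
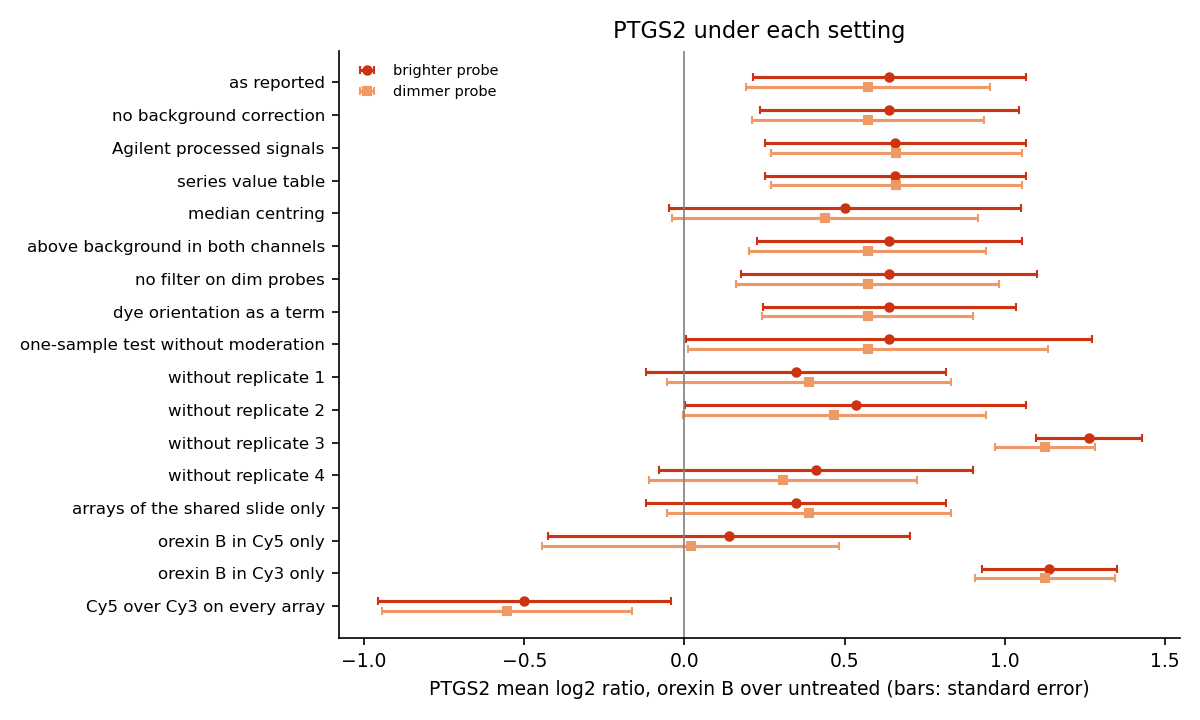
Mean log2 ratio of orexin B over untreated for PTGS2 (horizontal axis, bars: standard error) under each processing setting (vertical axis), for the brighter and the dimmer probe. The means stayed above 0 in all settings that use the dye labels of each array, from 0.019 with orexin B in Cy5 only to 1.26 without replicate 3, and were -0.50 and -0.55 when Cy5 over Cy3 was taken on every array.

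The direction of the ratios rests on the dye fields of each sample. The protocol text in the labels names a single orientation, with orexin B in Cy5, for all arrays. The authors' series table, however, carries the sign of Cy5 over Cy3 on arrays 1 and 3 and the opposite sign on arrays 2 and 4, the same turning as the sample fields. With Cy5 over Cy3 on every array PTGS2 would have -0.50 and -0.55 in its 2 probes, and 0 of the 7 member probes would have a mean above 0.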

How the data were processed

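Total RNA of 4 treated and untreated pairs was labelled as cRNA (825 ng per dye), per the labels' protocols. Per the file headers, Agilent Feature Extraction 10.7.3.1 wrote the deposited scanner files, which give each spot's intensity in both dyes, its marks, a log10 ratio and processed intensities; the last served as an alternative. The deposited series table holds log2 ratios; it matched the processed log2 ratio within 0.01 for at least 99.98% of probes on each array once arrays 2 and 4 were turned. No centring was seen: the medians of its columns for arrays 1 to 4 were -0.27, -0.08, -0.20 and -0.09. The build is not given in the sources used here.

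Median signals were corrected in limma 3.58.1 (R 4.3.3) with normexp (offset 50) and normalized by loess, giving control spots a weight of 0. Marked outlier spots (31 to 138 per array) were left out. Probes well above background on all 4 arrays in either RNA's channel, with at least 3 unmarked spots, were tested: 19876 of 43603. An intercept model was fitted with lmFit and eBayes (total degrees of freedom 7.10), with Benjamini-Hochberg adjustment over all tested probes. Channel levels come from loess and Aquantile normalization and are open to dye bias. The fit was tested on simulated data. Unversioned RefSeq accessions in the probe annotation were looked up in RefSeq's table for Sscrofa11.1, and 6700 probes got a symbol. The members, lists and rules were chosen with earlier results of these data known. Besides NFKB1, CCL2, NFKBIA, IL6 and TNF, named list genes were those of 1 sign on all arrays and the 4 others of smallest p per list, by their brightest probe. The nearest genes were the 5 with the smallest root mean square difference from a member spanning over 1 log2 unit. The number of arrays limits the precision. Plots used matplotlib 3.10.9 under Python 3.11.15.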

Additional observations from a re-analysis of the deposited data

Results flagged for a closer look

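Of 63 sets of 4 array values examined, 2 had 1 value far from the other 3 by Dixon's criterion at the 95% level, where chance gives about 3.15. MGLL, which releases arachidonate from monoacylglycerol, stood at 0.60 on array 3, while its log2 ratios on the other arrays lay between -0.19 and -0.11. The gap was 0.904 of its whole range, and its mean of 0.04 was -0.15 without replicate 3. CXCL10, chosen for its nearness to PTGS2, stood at -1.11 on array 3 and between 0.74 and 1.09 elsewhere, a gap of 0.843 of its range.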

How the results depend on the processing

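No probe of the prostaglandin genes passed an adjusted p of 0.05 in limma under any of the settings run, and the count over all probes was 0 in all of them except with orexin B in Cy3 only, where it was 42. The number of probes with an unadjusted p under 0.05 was 177 with median centring, 2302 without a filter on dim probes, 2361 with dye as a term, 2892 with orexin B in Cy3 only and between 726 (without replicate 4) and 1922 (without replicate 3) with a replicate left out, against 1534. Of the 7 member probes, 3 (both of PTGS2 and the brighter of AKR1B1) reached that level without replicate 3, and both PTGS2 probes did with orexin B in Cy3 only. With a replicate left out the brighter probes ran from 0.35 to 1.26 for PTGS2, from -0.0066 to 0.16 for PTGES and from 0.088 to 0.46 for AKR1B1, and CBR1 from 0.037 to 0.15. The dimmer AKR1B1 probe ran from -0.18 to 0.029. The brighter PTGES probe had -0.017 with median centring and -0.021 with orexin B in Cy5 only. The dimmer AKR1B1 probe had 0.033 with Agilent's processed signals and with the series table and 0.042 with orexin B in Cy3 only. With Cy5 over Cy3 on every array PTGS2 had -0.50 and -0.55, PTGES -0.13 and -0.043, the brighter AKR1B1 probe -0.040 and CBR1 -0.086. The brighter PTGER3 probe ran from -0.15 to 0.033, PLA2G7 from -0.085 to 0.33, MGLL from -0.15 to 0.11 and ATF4 from -0.010 to 0.36 with a replicate left out. ATF4 had -0.010 on the shared slide and MGLL -0.00094 with the processed signals and the series table. The cause of these changes was not tested. Arrays 2, 3 and 4 shared a slide, so that setting equals leaving out replicate 1. The settings by dye orientation and Cy5 over Cy3 were chosen after seeing the data and run for the members and counts. The mean spot signal was not run, because the files used here give medians. No further pairing was added, because each ratio already pairs both RNAs on 1 array.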
